A study of Zea mays with 2 samples.

Results

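The loci described here are those listed in maize endosperm with a mean of at least 100 and under 1000 FPKM over the rea1 and the WT library, with all spans included. FPKM stands for fragments per kilobase of transcript, scaled by the authors to the mapped fragments of a library. The loci were thus chosen by measured values, the mean of both FPKM values of a locus. The rule found 210 of 12140 listed loci. They sit below 24 loci with means of at least 1000 FPKM and above the 1969 at 10 to 100 FPKM. Both libraries were made from total RNA of endosperm of Zea mays kernels 15 days after pollination, one from rea1 mutant kernels and the other from wild-type (WT) kernels, with no treatment named in the labels. The labels name no inbred background, no allele of rea1 and no zygosity. Triplicates are mentioned in the design text, yet a locus has 1 value per genotype in the data used here. Without replicates the error of a difference is unknown, and no test was made. A difference below is a difference between these libraries, and fewer cells of a type cannot be told apart from less RNA per cell.

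Endosperm is the nutritive tissue of the cereal kernel, and at mid-filling its transcripts are dominated by messages for storage proteins, with messages for starch synthesis and for the translation and secretion machinery beneath them. Cells that fill with storage protein rely on a high output of ribosomes. The rea1 mutation is known to lie in a maize homologue of midasin, an AAA-ATPase that releases assembly factors from precursors of the large ribosomal subunit. The loci carry only a position, so neither storage protein genes nor other pathway members, nor the endosperm markers that would check the labelled tissue, could be named, and no function is given to a locus. Positions count from 1, belong to the unstated genome build of the files and are not placed in exons, introns or UTRs.

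The mean of the libraries chose the loci, so their levels and counts are descriptions. Just inside the lower limit were chr2:10000081-10001081 at a mean of 100.23 FPKM and chr1:11299653-11300336 at 100.85 FPKM. Just outside it were chr6:35091086-35091612 at 99.42 FPKM and chr8:52843379-52844926 at 99.06 FPKM. The upper limit fell in a wide gap, with chr4:194518163-194520236 at a mean of 875 FPKM inside it and chr10:4676400-4679041 at 1222 FPKM outside it.

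Most of the 210 loci had a higher value in the rea1 library. Higher values in rea1 were found at 156 loci and lower values at 54. At 2-fold or more, taken on log2(FPKM + 1), the rea1 value was higher at 87 loci (41.4%), lower at 21 (10%) and within 2-fold of WT at 102. Of the 5995 listed loci with at least 1 FPKM in rea1 or WT, 12.3% were 2-fold higher and 9.67% were 2-fold lower in rea1. The median log2 ratio of rea1 over WT was 0.66 over the 210 loci (95% interval 0.46 to 0.97), against 0.09 over the 5995 loci and 0.22 over the 1969 loci at 10 to 100 FPKM. The interval comes from binomial order statistics over loci and treats them as independent. Scaling the libraries so that loci of at least 10 FPKM in both have a median log2 ratio of 0 removed a shift of 0.23 from each ratio. The median of the 210 was then 0.43, with 71 loci higher and 22 lower.

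The size of the majority depended on which library set the class. With loci taken at 100 to 1000 FPKM in rea1 alone, 107 of 233 were 2-fold higher and 12 were 2-fold lower, with a median log2 ratio of 0.92. With loci taken at 100 to 1000 FPKM in WT alone, 49 of 176 were 2-fold higher and 33 were 2-fold lower, with a median of 0.22. Choosing on the rea1 value favours loci high in rea1, and choosing on the WT value those high in WT. The direction of this move is thus set by the choice, and nothing is read from it. Only 136 loci lay between 100 and 1000 FPKM in both libraries. Of the 210 loci, 142 reached 100 FPKM in both libraries, 53 in rea1 only and 15 in WT only. At least 1000 FPKM was reached by 4 of them in rea1 and by 3 in WT.

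**Figure D1:**
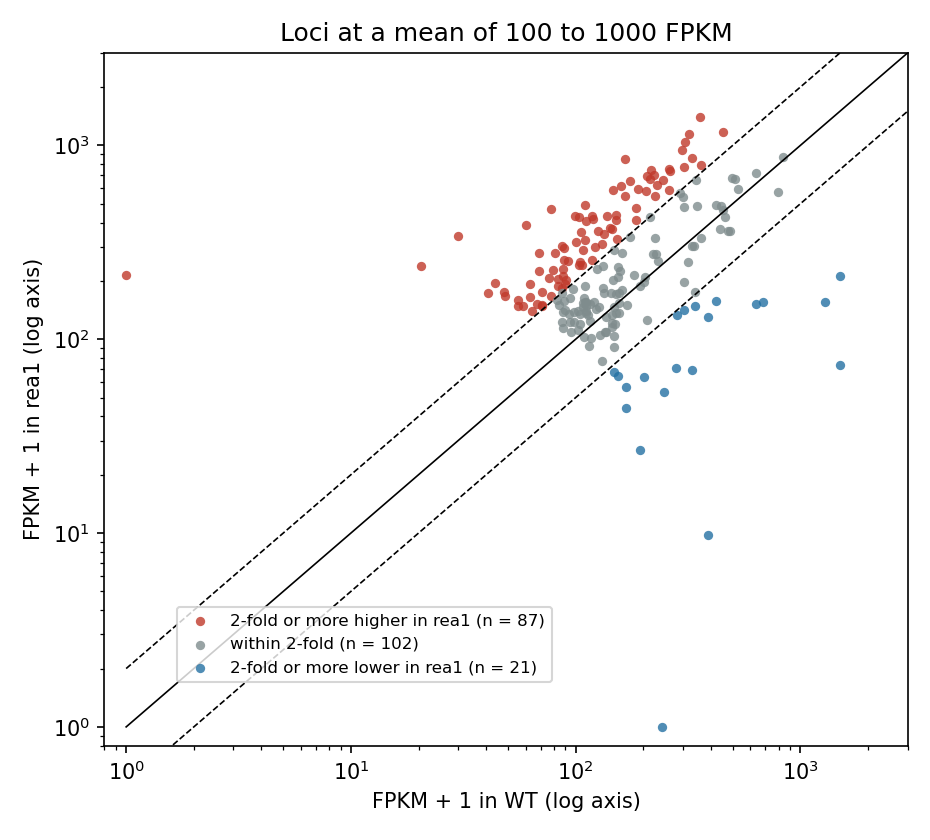
FPKM + 1 in rea1 (vertical, log axis) against FPKM + 1 in WT (horizontal, log axis) for the 210 loci; the solid line marks equal values, the dashed lines 2-fold differences, and each point is 1 locus. Most of the 87 loci higher in rea1 lie close above the upper dashed line, where the 2-fold cut sets the near edge, and 13 are 4-fold or more higher. Of the 21 lower loci, 10 are 4-fold or more lower.

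Of the FPKM summed over all listed loci, the 210 held 13.8% in rea1 and 9.36% in WT. Their own sum was 62685 FPKM in rea1 and 42721 FPKM in WT. The sum over all listed loci was 452816 FPKM in rea1 and 456377 FPKM in WT. Over loci of 500 bp or more, however, that sum was 221739 FPKM in rea1 and 383609 FPKM in WT. On this basis the 184 loci of the class that are so long held 25.9% in rea1 and 9.44% in WT. This limit leaves out the most abundant locus of rea1, at 141583 FPKM, but keeps that of WT, at 144212 FPKM and 723 bp. Without the most abundant locus of each library, the 210 held 20.1% in rea1 and 13.7% in WT. Among the loci of all spans under a mean of 1000 FPKM, so with the 24 most abundant loci left out, the 210 held 46.5% in rea1 and 40.1% in WT. The 87 higher loci held 8.06% in rea1 and 2.61% in WT, again of the sum over all listed loci. The 102 loci within 2-fold held 5.34% in rea1 and 4.59% in WT. The 21 lower loci held 0.434% in rea1 and 2.16% in WT. Shares by direction follow from how the loci were split and show only the weight of each group.

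The excess in rea1 was spread over many loci, and the deficit over few. The 156 loci with higher values in rea1 summed to 29363 FPKM more in rea1 than in WT, and 30 of them held 50% of it. The 10 with the largest excess held 22.8%. The 54 loci with lower values summed to a difference, rea1 minus WT, of -9399 FPKM, and 3 of them held 41.0% of it.

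**Figure D2:**
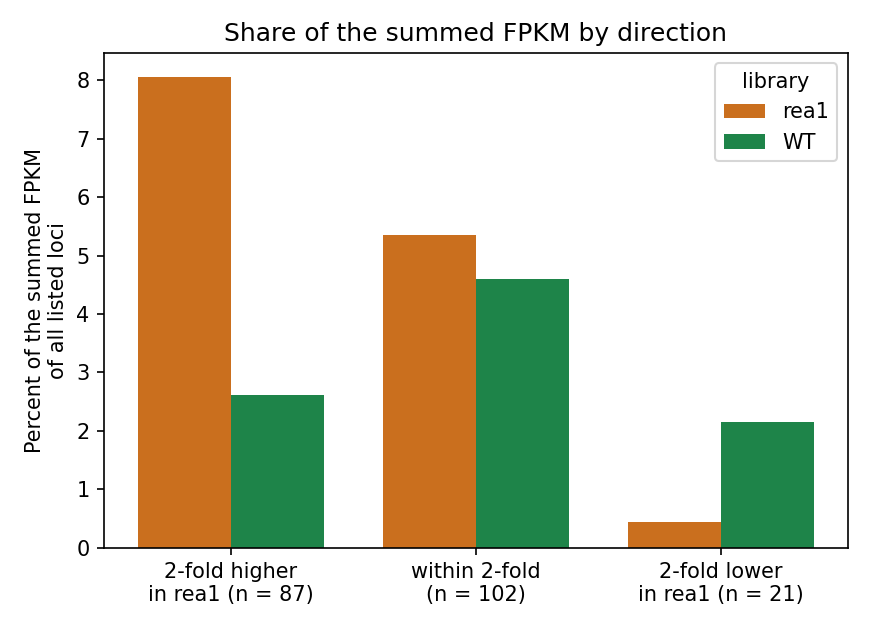
Percent of the summed FPKM of all listed loci held by the loci of the class, split by direction, with rea1 left and WT right in each pair of bars. The 87 higher loci held 8.06% in rea1 and 2.61% in WT, and the 21 lower loci 0.434% in rea1 and 2.16% in WT.

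The loci with the highest means included large differences in both directions. The locus chr4:194518163-194520236, of 2074 bp, had 1395 FPKM in rea1 and 355 FPKM in WT, which placed it at rank 18 in rea1 and rank 48 in WT. The locus chr9:108726777-108730186 had 1179 FPKM in rea1 and 453 FPKM in WT, and chr6:4596812-4616642 had 1141 FPKM in rea1 and 320 FPKM in WT. These, with chr2:10483475-10486040 at 1036 FPKM in rea1 and 306 FPKM in WT, are the 4 loci that passed 1000 FPKM in rea1. The 3 that passed 1000 FPKM in WT were all far lower in rea1. The locus chr7:18867732-18868453 had 212 FPKM in rea1 and 1505 FPKM in WT. The locus chr6:39087615-39088302 had 73.1 FPKM in rea1 and 1507 FPKM in WT, and chr4:5594840-5595805 had 155 FPKM in rea1 and 1283 FPKM in WT. The remaining 3 of the 10 highest means lay within 2-fold. Nearly equal values were listed at chr1:22937609-22941362, with 870 FPKM in rea1 and 838 FPKM in WT, and similar ones at chr9:1427243-1428578, with 717 FPKM in rea1 and 637 FPKM in WT. The 317 bp locus chr1:165775017-165775333 had 576 FPKM in rea1 and 792 FPKM in WT.

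Most of the 2-fold differences upward were close to one another in size, with the lower edge set by the 2-fold cut. Of the 86 higher loci with a value above 0 in WT, 49 were 2- to 3-fold higher in rea1, 25 were 3- to 4-fold higher and 12 were 4-fold or more higher. Their median was 2.89-fold, the lower quartile 2.47-fold and the upper quartile 3.48-fold. Of the 20 lower loci with a value above 0 in rea1, 10 were 4-fold or more lower, with a median of 3.94-fold, a lower quartile of 2.61-fold and an upper quartile of 5.38-fold. Counting the locus listed at 0 on either side, and taken on log2(FPKM + 1), a 4-fold difference upward was found at 13 of the 210 loci and downward at 10. The shares over all loci reaching 1 FPKM were 2.12% upward and 2.49% downward.

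In bins of 0.5 on the log2 scale the ratios were fewer between 0.5 and 1 than on either side. From 0 to 0.5 lay 44 loci, from 0.5 to 1 only 25, and from 1 to 1.5 again 40, with 34 more from 1.5 to 2. The loci at 10 to 100 FPKM had 1 peak, with 29.6% of ratios from 0 to 0.5, 21.8% from 0.5 to 1 and 7.52% from 1 to 1.5. The bins were set after the values were seen and the dip was not tested.

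**Figure D3:**
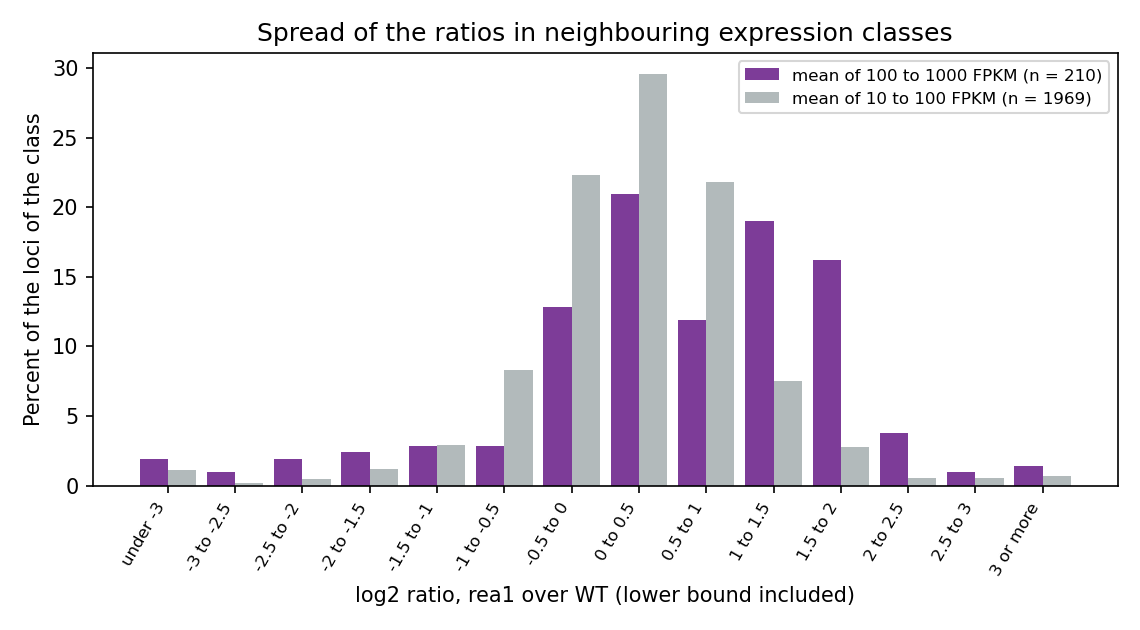
Percent of loci (vertical) by log2 ratio of rea1 over WT in bins of 0.5 (horizontal), for the 210 loci at a mean of 100 to 1000 FPKM and the 1969 loci at 10 to 100 FPKM. The 210 loci show 44 loci from 0 to 0.5, 25 from 0.5 to 1 and 40 from 1 to 1.5, where the lower class falls steadily.

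The highest ratios among loci of 500 bp or more were led by chr6:85885932-85886638, with 341 FPKM in rea1 and 28.9 FPKM in WT, 11.8-fold higher. It lies alone, with its nearest listed neighbour 114 kb away. The next was chr3:13959415-13961037, with 389 FPKM in rea1 and 59.0 FPKM in WT, 6.60-fold higher. The locus chr5:9961917-9963066 had 468 FPKM in rea1 and 76.8 FPKM in WT, and chr7:3025543-3026306 had 850 FPKM in rea1 and 165 FPKM in WT, 6.09-fold and 5.16-fold higher. The other 6 of the 10 highest ratios were between 4.03-fold and 4.52-fold higher. They lay at chr8:16168400-16169065, chr7:172768124-172772631, chr6:34438653-34440618, chr5:192204038-192205793, chr3:176723510-176726585 and chr2:73918711-73921281. In rea1 these 6 had 172 to 585 FPKM, and in WT 39.8 to 145 FPKM.

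The lowest ratios among loci of 500 bp or more reached further only at the extreme, to 20.6-fold lower. The tenth of them was 2.68-fold lower, while the tenth highest ratio was 4.03-fold higher. Apart from the 3 loci that passed 1000 FPKM in WT, the lowest of them was chr6:31567089-31568921, with 25.9 FPKM in rea1 and 193 FPKM in WT, 7.45-fold lower. The locus chr1:84333878-84334569 had 52.4 FPKM in rea1 and 247 FPKM in WT, 4.72-fold lower. The 49574 bp locus chr1:162047479-162097052, the longest of the 210, had 151 FPKM in rea1 and 631 FPKM in WT. The locus chr5:21903403-21908619 had 69.8 FPKM in rea1 and 280 FPKM in WT. At chr4:28055574-28056779 there were 43.1 FPKM in rea1 and 167 FPKM in WT, and at chr4:29951761-29952727 there were 129 FPKM in rea1 and 386 FPKM in WT. The tenth was chr5:12301885-12303394, with 157 FPKM in rea1 and 420 FPKM in WT. Among these 10 lowest ratios, 5 belonged to spans under 1000 bp.

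A few loci hardly differed between the libraries. Among loci of 500 bp or more, nearest to equal was chr1:259466499-259468231, with 145 FPKM in rea1 and 147 FPKM in WT. The locus chr10:102335033-102336707 had 196 FPKM in rea1 and 200.1 FPKM in WT, and chr5:5434731-5437116 had 465 FPKM in rea1 and 454 FPKM in WT. At chr8:89472518-89473046 there were 208 FPKM in rea1 and 203 FPKM in WT, and at chr7:66546202-66548584 there were 187 FPKM in rea1 and 193 FPKM in WT. Level values were thus listed across the class, from 145 to 870 FPKM in rea1.

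Spans differed between the directions. Span is the distance between start and end on the chromosome and includes introns. The 87 higher loci had a median span of 2293 bp, the 102 within 2-fold 2852 bp, and the 21 lower loci 722 bp. Under 500 bp, 5 of 26 loci were 2-fold higher and 7 were lower, with a median log2 ratio of -0.15. From 500 to 2000 bp, 27 of 63 were higher and 11 lower, and the median was 0.66. From 2000 to 5000 bp, 43 of 79 were higher and 1 was lower, with a median of 1.13. At 5000 bp or more, 12 of 42 were higher and 2 lower, and the median was 0.43. The loci at 10 to 100 FPKM also had low ratios at short spans, with 20 of 94 under 500 bp higher, 32 lower and a median of -0.31. Their medians were 0.38 from 500 to 2000 bp, 0.31 from 2000 to 5000 bp and 0.14 at 5000 bp or more. The single lower locus from 2000 to 5000 bp was chr8:116304177-116308901, with 147 FPKM in rea1 and 339 FPKM in WT.

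The range of 2000 to 3000 bp, chosen after the values were seen, held higher loci and no lower one. Of its 43 loci, 28 were 2-fold higher in rea1 and 15 lay within 2-fold, and their sum was 17717 FPKM in rea1 and 7609 FPKM in WT. Among the loci of 10 to 100 FPKM in this range, 47 of 232 had a 2-fold higher value in rea1 (20.3%) and 9 a lower one (3.88%). Taken on WT alone, the class had 34 loci of 2000 to 3000 bp, of which 20 were higher and 1 was lower. Taken on rea1 alone, it had 49, of which 34 were higher and none was lower. Under 500 bp the directions did depend on this choice, with 7 higher and 2 lower of 25 on rea1 alone, and none higher and 16 lower of 30 on WT alone.

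**Figure D4:**
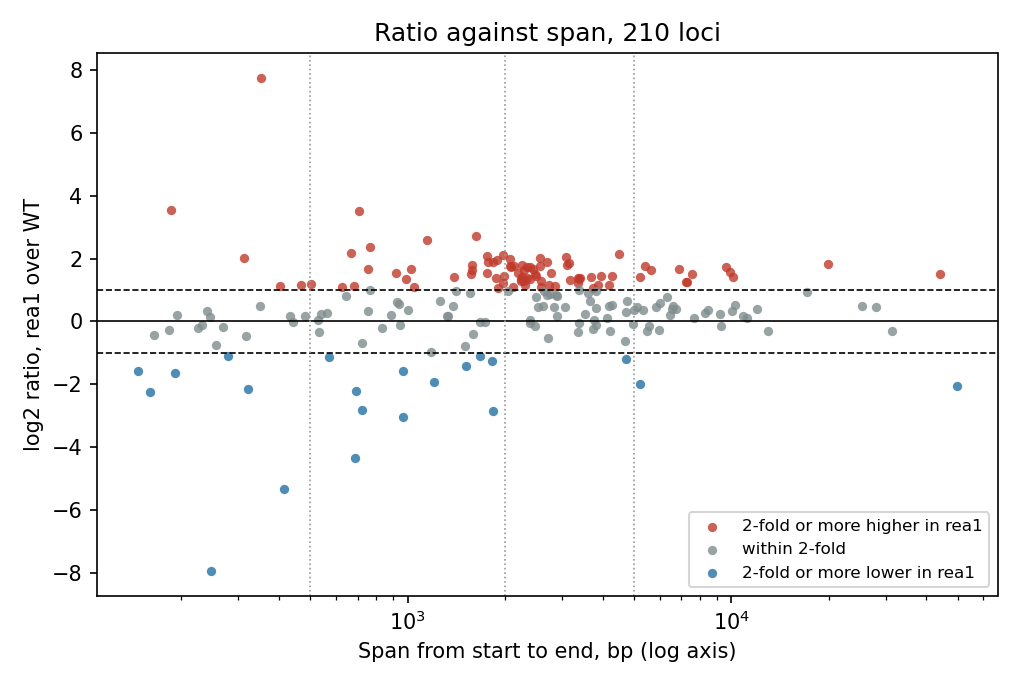
Log2 ratio of rea1 over WT (vertical) against span in bp (horizontal, log axis) for the 210 loci; the solid line marks equal values, dashed lines 2-fold, and dotted lines 500, 2000 and 5000 bp. From 2000 to 5000 bp, 43 of 79 loci lie above the upper dashed line and 1 lies below the other. Of the loci at 10 to 100 FPKM in that range, not drawn here, 12.5% were 2-fold higher and 3.68% lower.

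The 26 loci under 500 bp need separate reading. The FPKM of a short transcript depends strongly on the length correction, and the part this plays was not tested. A value of exactly 0 was listed for 1 of the 210 loci in rea1 and for 1 other in WT, both of them short. The 247 bp locus chr7:150822255-150822501 was listed at 0 in rea1 and had 242 FPKM in WT. The 353 bp locus chr2:79225727-79226079 had 213 FPKM in rea1 and was listed at 0 in WT, and no other listed locus lay within 100 kb of it. The 415 bp locus chr6:140536934-140537348 had 8.73 FPKM in rea1 and 387 FPKM in WT, 44.3-fold lower. A span of 186 bp at chr3:218853868-218854053 had 238 FPKM in rea1 and 19.5 FPKM in WT. This short locus was named after its values were seen. Of the 26, 14 lay within 2-fold.

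By span the class also stood between its neighbours. Its median span was 2364 bp, against 4174 bp at 10 to 100 FPKM and 774 bp at 1000 FPKM or more. Spans under 500 bp made up 12.4% of it, 4.77% of the loci at 10 to 100 FPKM and 10% of all listed loci. Spans of 5000 bp or more made up 20% of it, 39.7% at 10 to 100 FPKM and 22.2% of all. A span divisible by 3, as the start-to-end distance of an uninterrupted coding sequence would be, was found at 73 of the 210 (34.8%), with 39.7% over all listed loci. Among the members under 500 bp the count was 15 of 26. Short loci at 10 to 100 FPKM had similar shares, 26 of 43 under 300 bp and 27 of 51 from 300 to 500 bp.

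Higher loci outnumbered lower ones at each level within the class. By band, 29.8% to 57.9% of the loci were 2-fold higher and 6.25% to 14.3% lower. Over all loci reaching 1 FPKM these shares were 12.3% and 9.67%, so the shares of lower loci lay on both sides of that value. Of the 84 loci at a mean of 100 to 150 FPKM, 25 were 2-fold higher and 8 lower in rea1, with a median log2 ratio of 0.46. At 150 to 200 FPKM, 14 of 35 loci had 2-fold higher values and 3 lower ones, and the median was 0.50. At 200 to 300 FPKM, these were 22 and 5 of 38, and the median was 1.26. The 32 at 300 to 500 FPKM had 15 higher and 2 lower, and the 21 at 500 to 1000 FPKM had 11 higher and 3 lower. Medians of these last bands were 0.98 and 1.13. The intervals of all 5 bands overlap, which does not show that the bands are alike, and differences between them were not tested.

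The loci lay on all 10 chromosomes and on no scaffold. Chromosome 1 held 39, chromosomes 2 and 6 held 24 each, and chromosome 9 held the fewest, 10. As a share of the listed loci of a chromosome they ranged from 1% on chromosome 3 (95% Wilson interval 0.59 to 1.70) to 2.60% on chromosome 6 (1.75 to 3.84). On each chromosome their summed FPKM was higher in rea1. The ratio to WT was lowest on chromosome 6, with 5942 FPKM in rea1 and 4964 FPKM in WT. A single locus there, chr6:39087615-39088302, gave 73.1 FPKM of the sum in rea1 and 1507 FPKM of that in WT. The ratio was highest on chromosome 3, with 4278 FPKM in rea1 and 2362 FPKM in WT. More loci were 2-fold higher than lower on each chromosome. The share higher ran from 20% on chromosome 9 to 54.5% on chromosome 8, against 12.3% over all loci reaching 1 FPKM. The share lower ran from 0% on chromosomes 3 and 9 to 17.4% on chromosome 4, against 9.67%. The median log2 ratio was highest on chromosome 8, at 1.09, and lowest on chromosome 9, at 0.18, with 22 and 10 loci. Within 20% of the chromosome's length from either end, the length being taken to the last listed locus, lay 62.4% of the 210 loci, 61.5% of those at 10 to 100 FPKM and 55.4% of all listed loci on the chromosomes.

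The loci were mostly scattered among others of lower level. The nearest listed neighbour lay a median of 16.6 kb away, against 12.9 kb at 10 to 100 FPKM and 18.1 kb over all listed loci. No locus of the 210 overlapped a listed locus at another position. The nearest neighbour was listed at 0 in both libraries for 43 of the 210, belonged to the same class for 11 and to the loci at 1000 FPKM or more for 3. Of the 124 nearest neighbours that reached 1 FPKM, 28 differed by 2-fold in either direction (22.6%), a share near the 22.0% of all loci reaching 1 FPKM. Of 51 nearest neighbours of higher loci that reached 1 FPKM, 9 were 2-fold higher, 3 lower and 39 within 2-fold, with a median log2 ratio of 0.27. Of 59 neighbours of loci within 2-fold, 6 were higher and 7 lower, their median being 0.04. Of 14 neighbours of lower loci, 1 was higher and 2 lower, with a median of -0.10.

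Within 250 kb of one another lay 30 of the 210 loci (14.3%), in 15 pairs and no larger group. Of the 1969 loci at 10 to 100 FPKM, 8.79% had one of the 210 within that distance. In 5 pairs both loci were 2-fold higher in rea1, in none were both lower, in 3 both were within 2-fold, and in 10 both ratios had the same sign. Since 156 of the 210 loci had higher values in rea1, many pairs share a sign whatever their distance, and nothing is read from these counts. The pair with the smallest gap, 687 bp on chromosome 2, had 682 FPKM in rea1 and 493 FPKM in WT at chr2:217276427-217278951 and 414 FPKM in rea1 and 118 FPKM in WT at chr2:217279639-217281219. A pair of spans of 2344 and 2386 bp lay 29.4 kb apart on chromosome 4. Its first locus, chr4:128289717-128292060, had 546 FPKM in rea1 and 166 FPKM in WT, and its second, chr4:128321482-128323867, had 148 FPKM in rea1 and 57.1 FPKM in WT. These 2 pairs were named after their values were seen.

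In 2 pairs the loci differed 2-fold in opposite directions. On chromosome 6 the 415 bp locus described above, lower in rea1, lay 59.2 kb from chr6:140596596-140599178, with 184 FPKM in rea1 and 85.6 FPKM in WT. On chromosome 8 chr8:116060353-116062438, with 694 FPKM in rea1 and 207 FPKM in WT, lay 242 kb from chr8:116304177-116308901, which was lower in rea1.

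**Figure D5:**
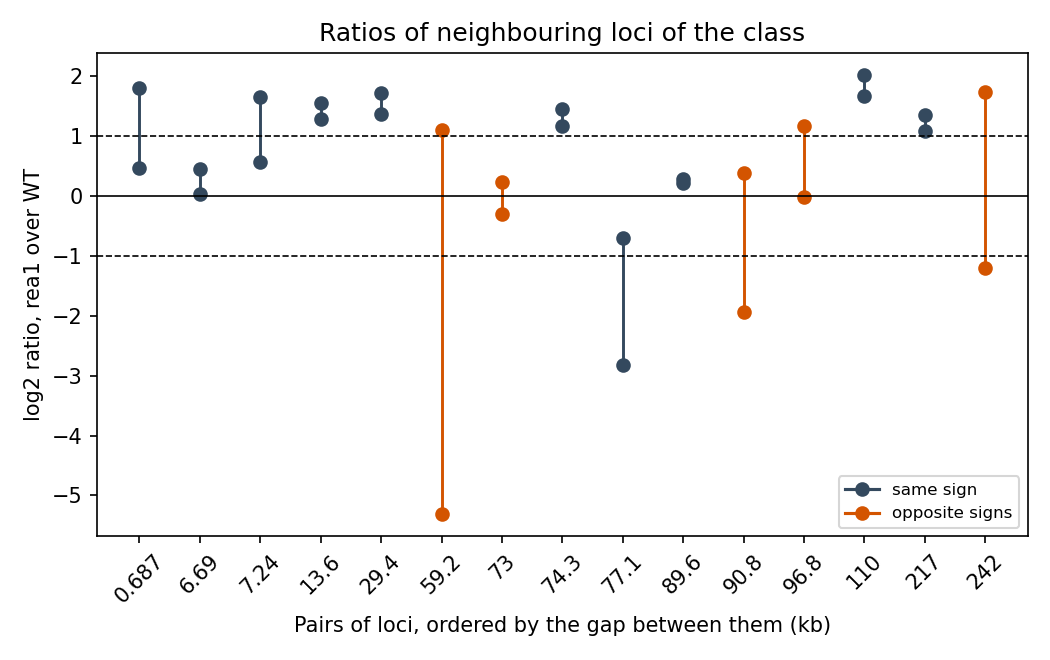
Log2 ratios of rea1 over WT (vertical) for the 15 pairs of loci of the class within 250 kb, ordered by the gap between them in kb (horizontal); a line joins the loci of a pair, and dashed lines mark 2-fold. In 10 pairs both ratios have the same sign, and 2 pairs reach 2-fold in opposite directions.

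Of the few loci near the most abundant ones, more were 2-fold lower than higher in rea1, in a split chosen after the data were seen. Within 250 kb of a locus averaging 1000 FPKM or above lay 7 of the 210, and 4 of these were 2-fold lower, 2 higher and 1 within 2-fold. Of the other 203, 17 were 2-fold lower (8.37%) and 85 higher (41.9%). These include the loci on chromosomes 2 and 3, where no locus averaging 1000 FPKM or above was listed. All 4 lower ones lay 39.8 kb or less away, and their abundant neighbours were lower as well. Lower values in rea1 were common among the abundant loci themselves, 19 of 24 in sign and 13 of 24 at 2-fold. The locus chr7:18867732-18868453 lay 1.59 kb from a locus of nearly equal span, 723 bp, that had 44053 FPKM in rea1 and 144212 FPKM in WT. The locus chr6:39087615-39088302 lay 3.36 kb from one with 1589 FPKM in rea1 and 3335 FPKM in WT. The locus chr4:29951761-29952727 lay 10.6 kb from one with 972 FPKM in rea1 and 2645 FPKM in WT, and chr1:162047479-162097052 lay 39.8 kb from one with 1571 FPKM in rea1 and 8679 FPKM in WT. Whether fragments of like neighbours were split between them was not tested, so the values of these single loci are uncertain. The 1 within 2-fold, chr7:18789875-18790599, had 90.8 FPKM in rea1 and 148 FPKM in WT. Of the 2 higher ones, chr7:165283016-165284039, with 946 FPKM in rea1 and 295 FPKM in WT, lay 139 kb from an abundant locus that was within 2-fold.

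The other was a row of the position chr4:5098147-5142076, which the files list 3 times. This row had 359 FPKM in rea1 and 125 FPKM in WT, while the others were above 1000 FPKM and more than 2-fold lower in rea1. In all, 17 of the 210 rows came from positions listed several times, and at 16 of these the row described here held the largest value in both libraries. Beside them stood 19 further rows, of which 14 reached 1 FPKM, none was 2-fold higher and 4 were lower. Over all loci reaching 1 FPKM, 12.3% were higher and 9.67% lower. The lower companions include the others at chr4:5098147-5142076 and a row with 0 FPKM in rea1 and 2.53 FPKM in WT. Of the 17 rows, 6 were 2-fold higher and 1 was lower, as was its companion. Over all 210 loci, 41.4% were higher and 10% lower. At chr4:36910205-36917779, chosen after its values were seen, the larger row had 741 FPKM in rea1 and 261 FPKM in WT, and its companion 3.72 FPKM in rea1 and 2.40 FPKM in WT.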

How the data were processed

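Endosperm RNA was sequenced in 1 library each of rea1 and WT. Values are FPKM as the authors deposited them, named so per the file headers. Bowtie 0.12.2 is named per the submitters' processing notes. The FPKM program, build, annotation and any filter are, however, not given in the sources used here. Both files hold 12140 rows in 1 order. Start and end differ by a multiple of 3 for 4825 rows and leave 2 for 3651, which fits starts that count from 0, and they are printed 1 higher.

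Read counts were not analysed here. If the lowest 2% of values above 0 stand for 1 fragment, 100 FPKM corresponds to roughly 1155 fragments in rea1 and 922 in WT at 1 kb, and to 72.7 in rea1 and 43.5 in WT at 250 bp, introns ignored.

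The log2 ratio is log2(FPKM + 1) in rea1 minus that in WT, and directions were called at 2-fold with values as deposited. The pseudocount of 1 hardly touches loci at 100 FPKM but shrinks ratios of low ones. Gaps run edge to edge. Loci given singly followed a rule: the 10 highest means, the 10 highest and 10 lowest ratios and the 5 nearest 0 at 500 bp or more, loci listed at 0 in 1 library, opposite neighbours within 250 kb and those at the limits. Others are said to be chosen later. Members, rules and lists were chosen with earlier results of these data known. Alternatives were pseudocounts, scalings (a median ratio of 0 among loci of at least 10 FPKM in both files, and a trimmed mean of log ratios), thresholds, a span limit, summed positions and other ways to take the class. The code was tested on simulated data. Python 3.11.15, numpy 2.4.6, pandas 2.3.3, scipy 1.17.1, statsmodels 0.14.6 and matplotlib 3.10.9 were used.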

Additional observations from a re-analysis of the deposited data

How the results depend on the processing

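The median log2 ratio of 0.66 lay between 0.59 and 0.85 under the other pseudocounts, the trimmed mean of log ratios, the limit to 500 bp or more, summed positions and the geometric mean. It was 0.43 under scaling to a median ratio of 0 (a shift of 0.23) and 0.22 with the class taken on WT alone. The counts of 87 higher and 21 lower loci became 49 and 33 on WT alone, and 12 were lower on rea1 alone. At 4-fold they were 13 and 10, the larger threshold keeping fewer by construction. Leaving out the loci within 250 kb of an abundant one, chosen after seeing the data, gave 85 and 17. The share of all FPKM was 13.8% in rea1 and 9.36% in WT. Over spans of 500 bp or more it was 25.9% in rea1 and 9.44% in WT, a limit that drops the most abundant locus of rea1 but not that of WT. Without the most abundant locus of each library, a different locus in rea1 than in WT, it was 20.1% in rea1 and 13.7% in WT. Without loci above the class it was 46.5% in rea1 and 40.1% in WT. With positions summed it was 13.9% in rea1 and 9.49% in WT. Within 1000 kb of another lay 69 loci, against 30 within 250 kb and 24 within 100 kb. Of 176 values for the 44 loci given by rule under 4 alternatives, 174 kept their side of the 2-fold threshold and 2 fell under it. A sign changed in 7 values of 4 loci, all within 2-fold and with a log2 ratio of at most 0.17 in size. No paired analysis was possible because there is 1 library per genotype, so none could be left out. Depth limits short loci most, by the rough fragment numbers above. Taking the class on the value of a single library favours loci high in that library, which sets the direction of those shifts. The cause of the other shifts between settings was not tested.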
